A study of Solanum lycopersicum with 36 samples.

Results

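Leaf transcriptomes of the tomato line SGT1ami and of the wild type grown with it were compared at 0 h, the start of a time course. The comparison covers every gene whose normalised value reached 10 in 3 or more of 6 libraries, 3 of SGT1ami and 3 of its own wild type. This rule kept 20765 of the 29285 identifiers in the deposited table. The plants were Solanum lycopersicum of the dwarf cultivar Micro-Tom, grown for around a month, and leaves were sampled. SGT1ami is read here as a line carrying an artificial microRNA against SGT1. The sources used here do not give its promoter, the number of transgenic lines behind the name or the cell types in which it acts. The experiment also held both genotypes at 3 h and 24 h, and an experiment run separately held the line SGT2ox with another wild type, with 36 libraries in 12 groups of 3 in all. The protocol describes plants kept in standard conditions and plants moved to the cold, and the library labels give a genotype and a time but not which of these applies.

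Sterols are lipids of plant membranes, where they affect the order and permeability of the bilayer. Sterol glycosyltransferases move a sugar from a nucleotide sugar onto the hydroxyl group of a free sterol, and the steryl glycosides so made are an abundant sterol class in tomato and related plants. Published work describes SGT1 and SGT2 as tomato enzymes of this kind. An artificial microRNA is a designed small RNA placed in a natural microRNA precursor, which guides the cleavage of transcripts with a matching site, so the transcript of the targeted gene is the first readout of such a line.

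The 6 libraries held 39956565 to 41092141 recovered reads each, and 23904 to 24007 identifiers had at least 1 read. Over the 20765 genes, Pearson's r of log2 values was 0.994 within each genotype and 0.982 between genotypes, a description across genes that are not independent replicates. Principal component 1, with 64.5% of the variance, separated the genotypes, at scores of -30.9 to -30.6 in SGT1ami and 30.6 to 30.8 in the wild type. The median SD between replicates was 0.0795 in SGT1ami and 0.0736 in the wild type on the log2 scale. Between replicates of a genotype the mean chi-square per gene was 2.77 to 4.13. This measure treats every read as a separate count, but even numbers outweighed odd ones among low read counts. It therefore cannot decide whether replicates differed by more than sampling noise. The labels call the triplicates biologically independent, and all p-values given here reflect nothing but the spread among these libraries. None of the identifiers matched the reference gene table, so genes are given by identifier without a function, and leaf marker genes could not be examined. In bulk leaf RNA, fewer cells of a type and less RNA per cell cannot be told apart.

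The targeted gene was lower in SGT1ami. Solyc06g007980, an identifier noted for SGT1 from memory of published tomato work and paired with that name by no table used here, stood at 2356, 2463 and 2487 normalised reads in the SGT1ami libraries. It stood at 7975, 7777 and 7784 in the wild type. The groups lay far apart, with a 3.22-fold lower mean in SGT1ami, a log2 fold change of -1.69 (SE 0.035) and an adjusted p of 4.2e-23 (limma), the smallest adjusted p among the 20765 genes. The wild type of the SGT2ox experiment held 9230 to 9512 and SGT2ox 9851 to 10334 at 0 h, so the 3 SGT1ami libraries were the lowest of the 12 libraries of 0 h. Among the 6698 genes with a mean of at least 1000 over the 6 libraries it had the second lowest fold change.

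The identifier noted in the same way for SGT2, Solyc09g061860, was lower too, but by much less. It stood at 2542, 2556 and 2549 in SGT1ami and at 3250, 3227 and 3200 in the wild type, so the groups did not overlap. The mean was 1.27-fold lower (log2 fold change -0.34, SE 0.033, adjusted p = 5.3e-09, limma). In SGT2ox, whose name gives this gene as overexpressed, it stood at 26390 to 26875 at 0 h against 926.9 to 1037 in the wild type of that line. At 3 h the groups of the SGT1ami experiment overlapped, with 5032 to 5214 in SGT1ami and 5044 to 5288 in the wild type (adjusted p = 0.75, limma, for a log2 fold change of -0.02).

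Besides the targeted gene, the rule for abundant genes named another fall and a pair of rises. Solyc07g039330 stood at 776.4, 897.1 and 751.4 in SGT1ami and at 3679, 3608 and 3577 in the wild type. Its mean was 4.48-fold lower in the line (log2 fold change -2.17, SE 0.047, adjusted p = 9.7e-23, limma), the lowest fold change among the genes with a mean of at least 1000. At 3 h, in libraries not used for the 0 h comparison, it was 4.3-fold lower (adjusted p = 2.1e-22, limma, for a log2 fold change of -2.10). In SGT2ox at 0 h the gene was lower too, by 1.67-fold, at 825.7 to 918.3 against 1460 to 1478 in its own wild type (adjusted p = 2.2e-11, limma).

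Solyc06g035940 was close to silent in the wild type, with 6.3, 0 and 8.78 normalised reads, and abundant in SGT1ami, with 3748, 3597 and 3531. This gene passed the rule through SGT1ami alone, which fixed its direction at 0 h. The log2 fold change was 9.77 (SE 0.67, adjusted p = 7.7e-12, limma). Because the wild type was near 0, the size of that value was not well fixed. It was 8.75 without wild type replicate 2, 10.18 without replicate 1, 10.39 without replicate 3 and 8.62 with a pseudocount of 5. In the SGT2ox experiment it stood at 3.05 to 12.9 in the wild type and at 5.06 to 10.4 in SGT2ox at 0 h. Of the 4 groups of 0 h only SGT1ami held it above 13.

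Solyc10g075150 stood at 5682, 5394 and 5340 in SGT1ami and at 2157, 2267 and 2163 in the wild type. It was 2.49-fold higher (log2 fold change 1.32, SE 0.04, adjusted p = 1.9e-19, limma). At 3 h both genotypes stood close together, at 2734 to 2905 in SGT1ami and 2656 to 2679 in the wild type (adjusted p = 0.21, limma, for a log2 fold change of 0.07). The difference between both effects passed the test (-1.25 on the log2 scale, SE 0.056, adjusted p = 2.9e-15, limma). In SGT2ox the same gene was 6.19-fold lower than in its own wild type at 0 h, at 328.5 to 429.4 against 2194 to 2381 (adjusted p = 5.6e-16, limma).

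**Figure D1:**
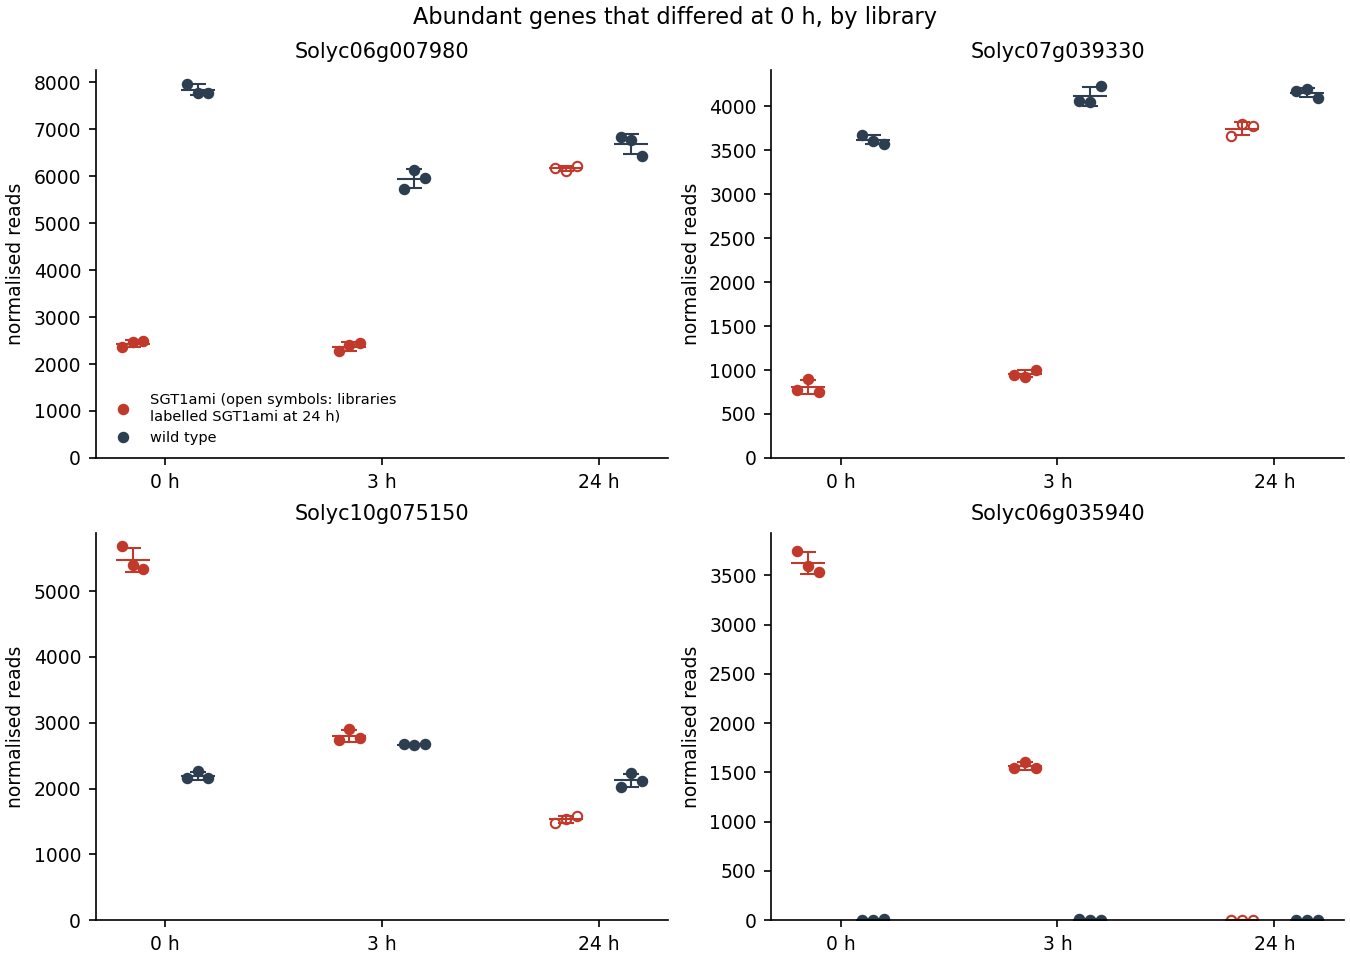
Normalised reads (vertical axes, linear from 0) of the 4 abundant genes at 0, 3 and 24 h in the SGT1ami experiment. Points are libraries, bars the mean and SD of 3 libraries, red SGT1ami and dark blue its wild type, with open points for the libraries labelled SGT1ami at 24 h. Solyc06g007980 and Solyc07g039330 were lower and Solyc06g035940 was higher in SGT1ami at 0 h and 3 h, whereas Solyc10g075150 differed at 0 h and not at 3 h.

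Across the leaf transcriptome, at an adjusted p of 0.05, 4155 of the 20765 genes were called, 2294 higher and 1861 lower in SGT1ami. That is 20% of them, close to the background of 19.1% of the 22286 genes tested in the experiment. For the higher genes the background was 10.6% and for the lower genes 8.53%. Most differences were small. The median absolute log2 fold change was 0.29 among called genes and 0.11 among all 20765. Of the called genes 1912 differed by less than 1.2-fold, 1425 by 1.2 to 1.5-fold and 467 by 1.5 to 2-fold. A called difference of at least 2-fold was found for 351 genes, 228 higher and 123 lower, where the background was 2% of the genes tested, 1.27% higher and 0.727% lower. Another 77 genes were at least 2-fold apart without passing the test. With trimmed-mean (TMM) scaling of the recovered reads, the called genes split into 2047 higher and 2095 lower, so the excess of rises depends on the scaling.

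Between 4-fold and 16-fold lay 45 higher and 30 lower genes, and at 16-fold or more 35 higher and 8 lower genes. These counts include genes that passed the rule through one genotype alone, whose direction was fixed by the rule, so no direction is read from them. These values lie on the log2(value + 1) scale, which understates the change of genes near 0.

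Calls were more frequent, and called differences smaller, among abundant genes. Among the 3145 genes with a mean under 50 over the 6 libraries, 10.3% were called, with a median absolute log2 fold change of 1.2. Among the 1058 genes with a mean of 5000 or more, 41.6% were called, with a median of 0.17. The median SE fell from 0.34 to 0.032 between these classes. The median absolute log2 fold change of all genes, called or not, went from 0.31 to 0.074. Of the genes with a mean of 5000 or more, 2 were called at least 2-fold apart, a rise and the fall of Solyc06g007980.

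The ranges of the 3 SGT1ami and the 3 wild type libraries did not overlap for 4119 genes that were higher and 3619 that were lower in SGT1ami. Over all genes tested the shares were 19.1% and 16.7%. Of the called genes 4002 had groups that did not overlap and 153 had groups that did, 7 of the latter with a fitted difference of at least 2-fold.

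**Figure D2:**
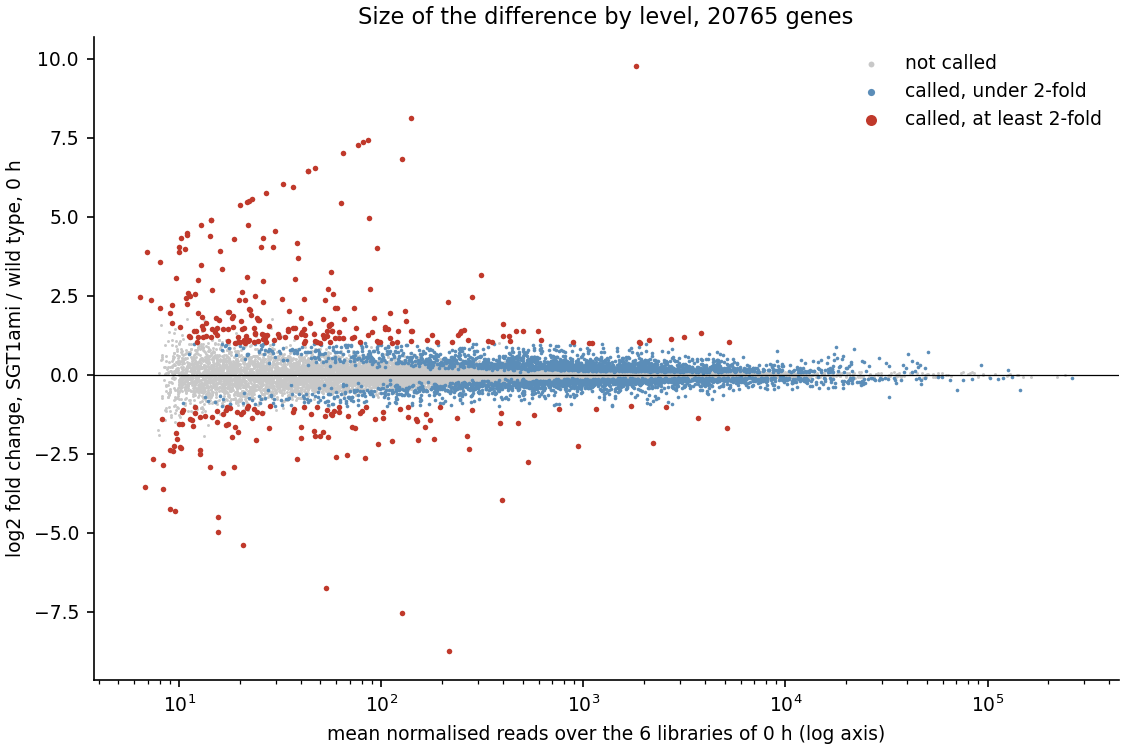
Log2 fold change of SGT1ami over wild type at 0 h (vertical axis) by mean normalised reads over the 6 libraries (horizontal axis, logarithmic), one point per gene. Grey marks the 16610 genes not called, blue those called with less than 2-fold difference and red the 351 called with at least 2-fold. Large differences lie mainly among genes with a mean under 200.

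The rule that chose the genes also shaped what they could show. A value of at least 10 in all 6 libraries was reached by 19676 genes. Another 101 reached it in every SGT1ami library and in no wild type library, and 65 in every wild type library and in no SGT1ami library. The genes of both sets had to differ, and their direction is not a finding. The remaining 923 passed with a mixture of libraries. The lowest third-highest value inside the rule was 10.2 and the highest outside it 9.76.

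A small set of genes was near 0 in one genotype and present in the other. With at most 3 reads in each library of a genotype taken as near 0 and at least 10 normalised reads in each library of the other as present, 30 genes were present in SGT1ami alone and 10 in the wild type alone. These were picked on their values and were not tested as a list. The 30 had mean levels of 13.9 to 281.1 in SGT1ami with a median of 41.8, and 21 of them had no read in any wild type library. The 10 had mean levels of 13.2 to 431 in the wild type with a median of 30.8, and 6 of them had no read in any SGT1ami library. The number depends on the limit chosen. With 10 reads in place of 3 there were 76 and 41 such genes, and with 0 reads 21 and 6.

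These states could be followed into libraries not used to pick them. At 3 h, 26 of the 30 genes were present in SGT1ami and 27 were near 0 in the wild type. All 10 of the others were near 0 in SGT1ami at 3 h and 8 were present in the wild type. In the libraries labelled SGT1ami at 24 h, 26 of the 30 genes were near 0 and 1 was present, and 7 of the 10 were present and none near 0. In those libraries Solyc06g007980 stood at 6118 to 6219, close to the 6441 to 6840 of the wild type at 24 h. The groups did not overlap there, and Solyc06g007980 was still called lower (log2 fold change -0.11, adjusted p = 0.017, limma). The small size of that difference puts the label in doubt, but its reason was not tested. These libraries are therefore named by their label throughout.

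In the other wild type, that of SGT2ox, 27 of the 30 genes were near 0 at 0 h and none was present. By 24 h, 4 of the 30 were present in that wild type and 19 were near 0, so they were not absent from every wild type group. Of the 10 genes present in the wild type of SGT1ami alone, 6 were present in that of SGT2ox at 0 h and 1 was near 0. At 24 h 3 of the 10 were present there and 4 were near 0. In SGT2ox at 0 h, 7 of the 30 genes were present and 16 near 0, and 1 of the 10 was present and 5 near 0. Counted gene by gene, 15 of the 30 were near 0 in both wild types and in SGT2ox at 0 h, and 6 were near 0 in both wild types and present in SGT2ox. Among the 10, 3 were present in both wild types and near 0 in SGT2ox. Of the 30 genes, 9 were near 0 in 30 of the 36 libraries of the series and present in the remaining 6, those of SGT1ami at 0 h and 3 h.

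**Figure D3:**
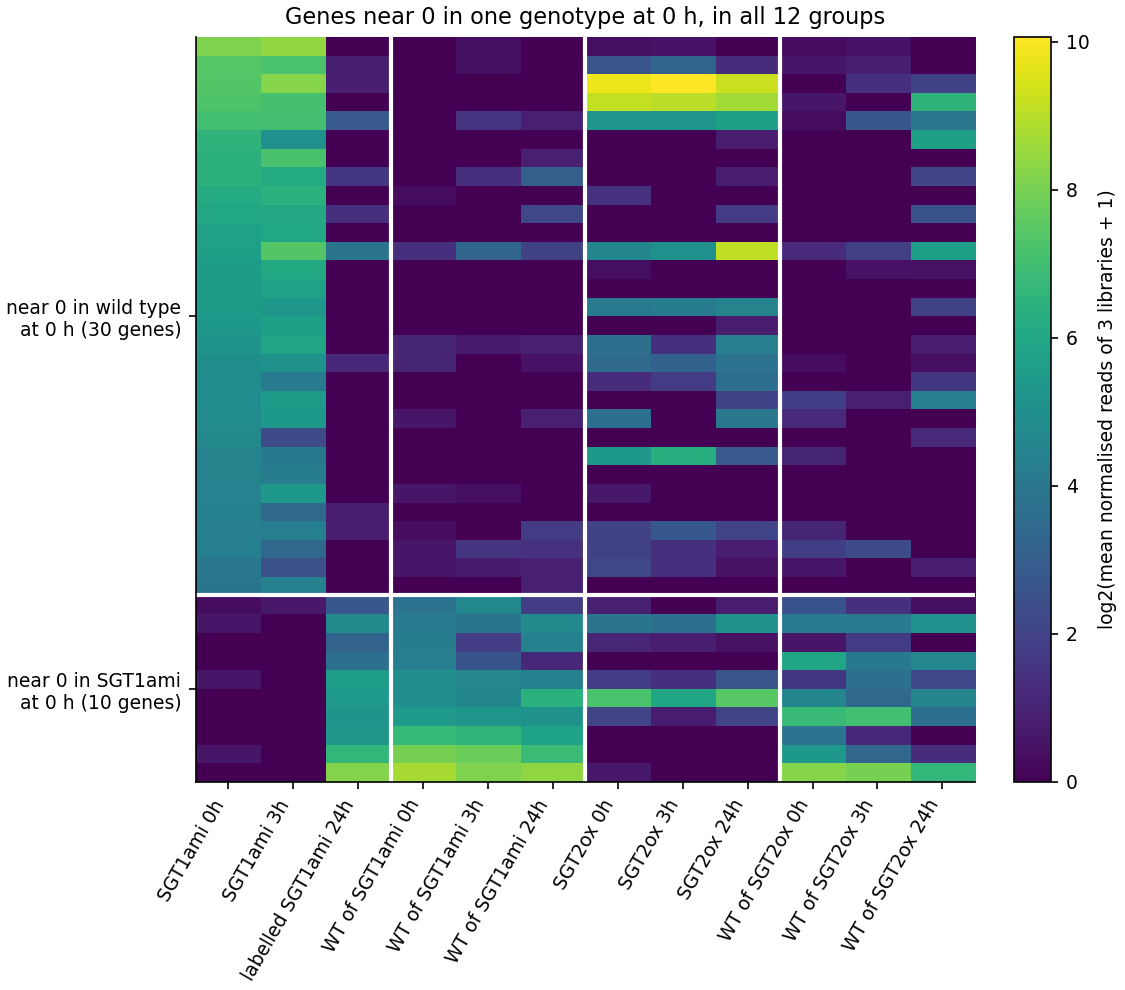
Mean normalised reads of 3 libraries, as log2(mean + 1) by colour, for the 30 genes near 0 in the wild type at 0 h (upper rows) and the 10 genes near 0 in SGT1ami at 0 h (lower rows), one row per gene, in the 12 groups of the series (columns). The states of 0 h recur at 3 h in both genotypes, and the libraries labelled SGT1ami at 24 h look like the wild type columns.

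The differences of 0 h were next followed to 3 h, in other libraries of both genotypes. Over all tested genes 13.8% were called higher and 14.3% lower in SGT1ami there. Both comparisons shared the estimate of the spread. Of the 2294 genes higher at 0 h, 789 (34.4%) were higher at 3 h and 506 (22.1%) were lower. Of the 1861 lower genes, 592 (31.8%) were lower at 3 h and 345 (18.5%) were higher. Fitted apart, on the 6 libraries of each time, 1191 genes were called in the same direction at both times instead of 1381.

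The share of genes called in the same direction at 3 h rose by degrees with the size of the difference at 0 h. Of the 43 genes at least 16-fold apart, 42 were called in the same direction at 3 h and none in the opposite direction. This class includes genes that passed the rule through a single genotype, which fixed their direction at 0 h. The 3 h libraries had no part in that rule. Of the 75 genes 4-fold to 16-fold apart, 49 (65.3%) had a call in the same direction and 4 an opposite one. Of the 233 genes 2-fold to 4-fold apart, 112 (48.1%) and 22 (9.44%) did. Of the 467 genes 1.5-fold to 2-fold apart, 195 (41.8%) had a call in the same direction and 76 (16.3%) an opposite one. Of the 1425 genes 1.2-fold to 1.5-fold apart, 478 (33.5%) and 291 (20.4%) did. Among the 1912 genes under 1.2-fold the shares were nearly level, with 505 (26.4%) in the same direction and 458 (24%) in the opposite one. The median log2 fold change at 3 h was counted as positive in the direction of 0 h. It was 5.32, 1.82, 0.56, 0.25, 0.055 and 0.0052 in these classes, from the largest differences to the smallest.

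Taken by direction, 134 of the 228 genes at least 2-fold higher at 0 h were called higher at 3 h, 104 of them again at least 2-fold, where 1.46% of the genes tested were. Of the 123 genes at least 2-fold lower, 69 were called lower at 3 h, 60 of them again at least 2-fold, where 1.49% of the genes tested were. The median log2 fold changes went from 1.49 to 0.87 among the higher and from -1.49 to -1.05 among the lower genes. The genes were picked for their size at 0 h, so a smaller median at 3 h is not read as a weaker effect.

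The libraries labelled SGT1ami at 24 h gave a different picture, and every direction drawn from them carries the doubt about their label. Over all tested genes 6.91% were called higher and 15.2% lower than the wild type of 24 h. Of the 228 genes at least 2-fold higher at 0 h, 23 were called higher and 9 lower at 24 h, with a median log2 fold change of 0. Of the 123 at least 2-fold lower, 17 were called lower and 6 higher, with a median of -0.13. The balance of all calls at 24 h turned with the scaling, from 1515 higher and 3375 lower with the deposited size factors to 3431 and 1586 with library totals. Of the 2066 genes higher at 0 h by less than 2-fold, 180 were called higher and 621 lower at 24 h with the deposited size factors. Scaled by library totals, 2048 such genes gave 384 higher and 302 lower.

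**Figure D4:**
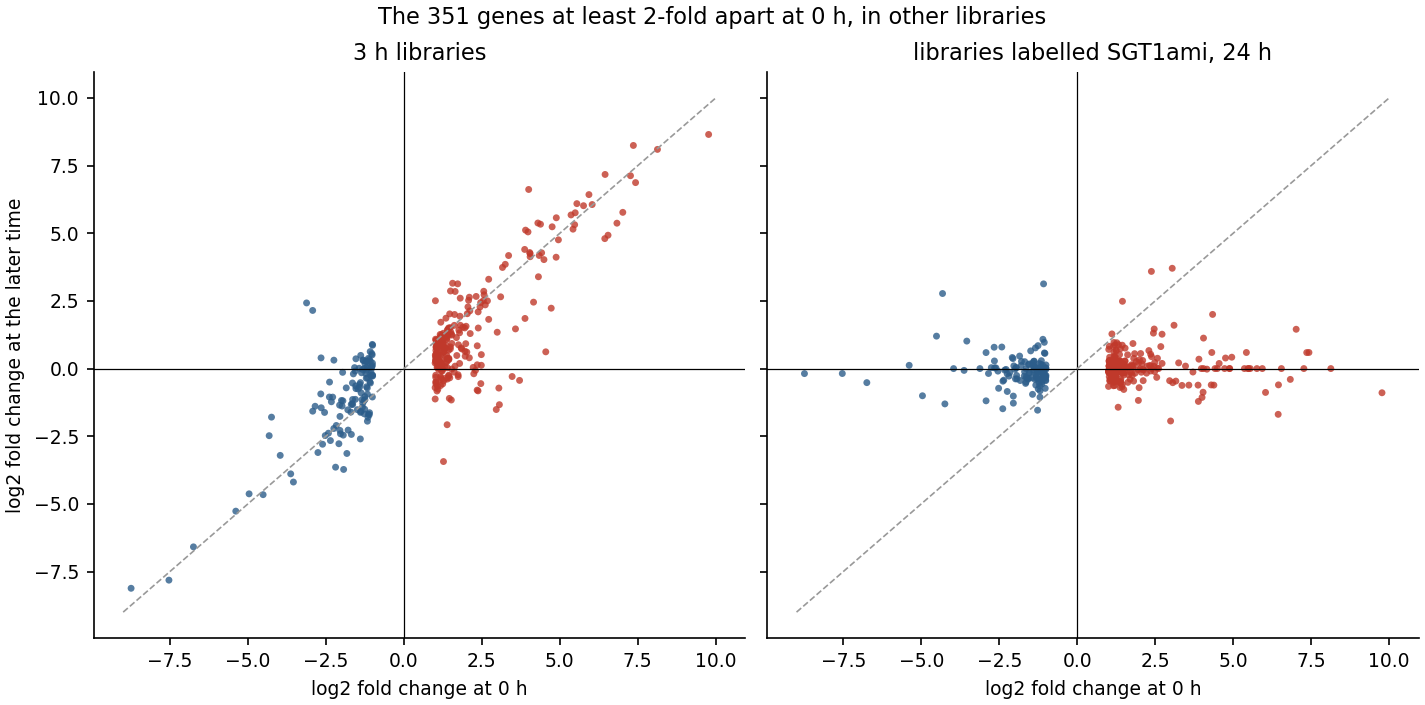
Log2 fold change at the later time (vertical axes) against log2 fold change at 0 h (horizontal axes) for the 351 genes called at least 2-fold apart at 0 h, at 3 h (left) and in the libraries labelled SGT1ami at 24 h (right). Red points were higher and blue points lower in SGT1ami at 0 h, and the dashed line marks equal changes. The largest differences lie near the dashed line at 3 h and near 0 in the 24 h panel.

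The change of the line effect between times was tested directly. Among the 20765 genes, 4399 had an effect at 3 h that differed from the one at 0 h, 1979 more positive and 2420 more negative. Over all genes tested the shares were 20.3% in all, 9.02% and 11.3%. Of these genes, 397 differed by at least 2-fold (background 2.32%). With library totals the split turned to 2324 more positive and 2155 more negative. The effect in the libraries labelled SGT1ami at 24 h differed from that of 0 h for 5169 genes (background 23.5%), 1773 more positive (8.11%) and 3396 more negative (15.4%), with the background in parentheses. With library totals these became 2977 and 2024. For 529 genes the effects were 2-fold or more apart (background 2.67%). Both tests use the 0 h libraries again, so they are not independent of the 0 h comparison.

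The genes with the largest changes of effect included a pair that did not differ by much at 0 h. Solyc03g120990 stood at 132.4, 124.6 and 131.7 in SGT1ami and at 150.3, 102.7 and 131.8 in the wild type at 0 h. At 3 h the wild type had 786.7, 909.6 and 781.2 and SGT1ami 113, 127 and 118.9. The groups overlapped at 0 h and lay far apart at 3 h, a difference of effects of -2.81 on the log2 scale (SE 0.17, adjusted p = 7.9e-13, limma).

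Solyc00g500063 was at 491.1 to 506.4 in SGT1ami and at 464.3 to 482.4 in the wild type at 0 h. At 3 h it reached 12582 to 13420 in SGT1ami and 58876 to 61090 in the wild type. The genotypes were 1.06-fold apart at 0 h and 4.63-fold apart, in the other direction, at 3 h (difference of effects -2.29, SE 0.039, adjusted p = 3.5e-25, limma).

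In the positive direction, Solyc11g012130 stood at 90.6, 72.3 and 81.3 in SGT1ami against 119.6, 132.1 and 132.6 in the wild type at 0 h, and at 785.8 to 874 against 238.4 to 264.2 at 3 h. SGT1ami thus lay 1.57-fold below the wild type at 0 h (adjusted p = 3.1e-05, limma) and 3.24-fold above it at 3 h (adjusted p = 8.2e-13, limma). The difference of effects was 2.34 on the log2 scale (SE 0.15). Solyc07g016117.1 was higher in SGT1ami at both times, at 169.6 to 189.5 against 7.16 to 14.4 at 0 h and at 123.2 to 161.9 against 0, 0 and 1.93 at 3 h. Its difference of effects was 2.62 on the log2 scale (SE 0.54, adjusted p = 0.00067, limma). With the wild type near 0 at 3 h, that value moved with the pseudocount and the tool, to 1.11 with a pseudocount of 5 (adjusted p = 0.02, limma), 3.30 with 0.5, 3.48 with edgeR and 3.67 with DESeq2.

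The 0 h differences were then set beside those of SGT2ox. That comparison shared no library with the one of SGT1ami, and 20630 of the 20765 genes were tested in both. Over the 22399 genes tested there, 14% were higher and 11.5% lower in SGT2ox. Of the 2261 genes higher in SGT1ami, 696 were also higher in SGT2ox, which is 30.8% of the SGT1ami list and 23.2% of the 3003 genes higher in SGT2ox. Of the 1852 lower genes, 484 were lower in SGT2ox, 26.1% and 19.2% of the lists. Opposite calls were found for 371 of the higher and 404 of the lower genes. Of the 196 genes at least 2-fold higher in SGT1ami, 61 were called higher and 36 lower in SGT2ox, with a median log2 fold change of 0.02 there. Of the 114 at least 2-fold lower, 30 were called lower and 17 higher, with a median of -0.17. At least 2-fold in both lines were 45 rises and 24 falls, 23% and 21.1% of the SGT1ami lists and 15.1% and 9.02% of the SGT2ox lists. Over all genes tested in SGT2ox, 1.84% rose and 1.41% fell by at least 2-fold. With library totals the shared genes split into 511 rises and 730 falls, and the calls in SGT2ox went from 3003 higher and 2527 lower to 1927 and 4564.

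The genes with the largest shared differences were near 0 in 1 genotype in both experiments. Each of these genes passed the rule of 0 h through 1 genotype of the SGT1ami experiment alone, which fixed its direction there. The fold bounds and adjusted p given for 0 h are therefore no evidence of direction. Solyc02g021785.1 had no read in any SGT1ami library of 0 h and stood at 456.5, 366.2 and 470.3 in the wild type, so it was at least 179-fold lower in the line (3 reads per library as the floor, adjusted p = 3.5e-22, limma). In the other experiment it stood at 0, 0 and 1.74 in SGT2ox and at 283.7 to 345.4 in the wild type. Solyc10g038185.1 had 2 reads in all 3 SGT1ami libraries together, both in replicate 1, and 958 in the wild type libraries, where it stood at 276.2, 245.2 and 238.8. Its mean was 482-fold lower in SGT1ami (95% exact interval of the read ratio 131 to 3922, counting error only). That interval takes reads as independent counts, whereas 67.5% of the values of 2 to 11 reads at 0 h were even. It may therefore be too narrow. Without SGT1ami replicate 1 no read is left and no finite ratio can be given. In SGT2ox at 0 h it was at 0 in all 3 libraries against 34 to 51.8 in the wild type. The mean of that wild type was 8.92 at 3 h and 1.42 at 24 h.

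Solyc08g066400 had no read in the wild type libraries of either experiment at 0 h and stood at 167.1, 154.4 and 168.3 in SGT1ami. It was at least 68.6-fold higher than the wild type floor (adjusted p = 1.7e-12, limma), and SGT2ox held 882.9 to 929.2. Solyc04g039670 had no read in the wild type of SGT1ami and stood at 152.1, 132.6 and 177.3 in SGT1ami, at least 64.7-fold higher (adjusted p = 6.9e-13, limma). In SGT2ox it stood at 500.6 to 611.3 at 0 h, against 0, 1.62 and 0 in its wild type. At 24 h that wild type did hold it, at 83.4 to 108.2 against 399.1 to 418.8 in SGT2ox. None of the 4 genes was called in the libraries labelled SGT1ami at 24 h (adjusted p of 0.42 to 1, limma).

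Tomato identifiers carry the number of the chromosome, which allowed the differences to be counted by chromosome without a genome. The 6 genes numbered 0, of which 3 were called and 1 was at least 2-fold apart, are left out of the ranges that follow. Over chromosomes 1 to 12, the share of genes called at 0 h ran from 16.9% on chromosome 11 to 21.9% on chromosome 5. The share at least 2-fold apart ran from 0.994% on chromosome 6 to 2.29% on chromosome 12. Rises outnumbered falls among the latter on every chromosome except chromosome 7, which had 11 rises and 14 falls. These counts include genes that passed the rule through a single genotype, whose direction was fixed by the rule, so no direction is read from them. Of the 30 genes present in SGT1ami alone, 7 lay on chromosome 1, 6 on chromosome 3 and 6 on chromosome 12. None lay on chromosomes 6 and 9. Chromosomes 1, 3 and 12 held 2658, 2191 and 1397 of the genes counted, and chromosomes 6 and 9 held 1810 and 1489. Some of the 30 were neighbours in identifier order, such as Solyc12g082720.1 and Solyc12g082730, so they need not be separate cases. Whether the 30 genes concentrate on any chromosome was not tested.

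**Figure D5:**
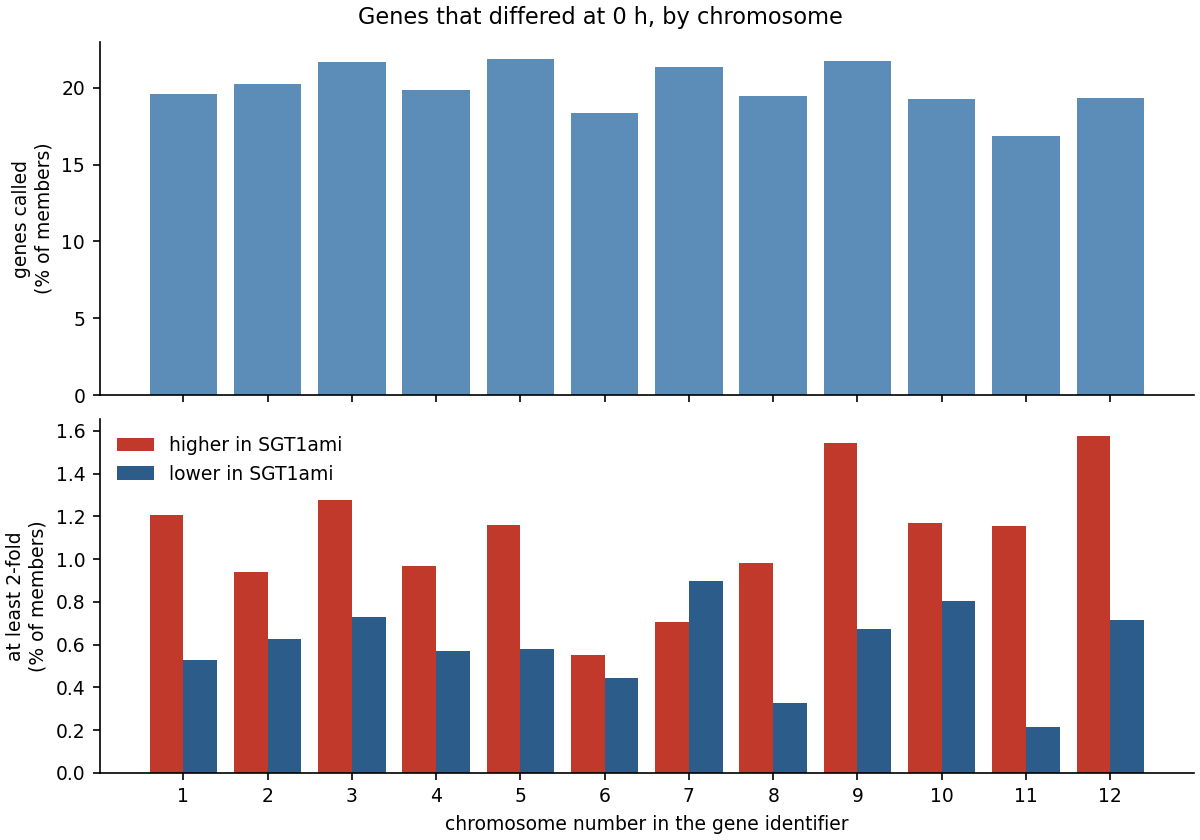
Percentage of the genes of each chromosome that were called at 0 h (upper panel) and that were called at least 2-fold higher (red) or lower (blue) in SGT1ami (lower panel), by the chromosome number in the identifier (horizontal axis), without the 6 genes numbered 0. The called share varies between 16.9% and 21.9%, and the share at least 2-fold apart between 0.994% and 2.29%.

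Some genes with large differences stood beside each other in identifier order. Of the 351 genes at least 2-fold apart, 70 (19.9%) had a neighbour among the 20765 genes that was at least 2-fold apart in the same direction. By direction these were 19.3% of the higher and 21.1% of the lower genes, whereas 2.13% of all 20765 genes had a neighbour at least 2-fold higher and 1.16% one at least 2-fold lower. Only 6 had a neighbour changed the opposite way. The 70 genes formed 30 runs, 19 higher and 11 lower in SGT1ami, of which 22 were pairs and the longest held 4 genes. Runs and neighbour shares include genes that passed the rule through a single genotype, whose direction was fixed by the rule. No direction is therefore read from the counts of runs. The longest were a run on chromosome 1, with log2 fold changes of up to 6.45 and all 4 genes called higher at 3 h, and a run on chromosome 12 of up to 4.03 with 2 of 4 called at 3 h. Of the 70 genes 46 (65.7%) were called in the same direction at 3 h, against 157 (55.9%) of the 281 genes outside runs, and 4 were in the libraries labelled SGT1ami at 24 h. Neighbouring genes can overlap and share reads, which was not tested.

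Identifiers that end in a version suffix were found more often among the large differences. They made up 19% of the 20765 genes, 38.2% of those at least 2-fold apart and 26 of the 40 genes near 0 in one genotype. Their levels were lower, with a median of 140 normalised reads against 598.4 for the others. Within levels under 50 the shares at least 2-fold apart were 7.02% with a suffix and 6.3% without, and between 200 and 1000 they were 1.01% and 0.359%. At 5000 or more they were 0% of 94 genes and 0.207%. The share called at 0 h was 18.7% with a suffix and 20.3% without. The sources used here do not say what the suffix stands for.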

How the data were processed

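Poly(A) RNA of leaves was sequenced with DNBSEQ technology, according to the labels. Tools named in the submitters' processing notes are STAR, DESeq2, featureCounts and Trimmomatic, with no version, role or order. Genome build, annotation and use of strand: not given in the sources used here. Overlapping genes and near-identical copies therefore cannot be separated. The deposited values are a signal, in which each library's gene counts had been divided by its size factor. The smallest non-zero value of each library was taken as a single read, and its inverse as the size factor. Recovered reads and size factors rest on that assumption. Multiplied by that factor, 100% of the deposited values gave whole reads (within 0.01 reads). Of the members' values of 2 to 11 reads at 0 h 67.5% were even. The size factors so obtained for the 6 libraries were 1.23 to 1.27.

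Levels are deposited values, here called normalised reads, and their means ± SD. Log2(value + 1) was tested with limma 3.58.1 (R 4.3.3), allowing the variance to follow the mean, fitted to the 18 libraries of the SGT1ami experiment in 6 groups (12 residual degrees of freedom). The 22286 genes that reached 10 in 3 or more of these libraries were tested, p-values were adjusted by Benjamini-Hochberg over all of them and called at 0.05, and the 20765 genes of the 0 h rule are counted. SGT2ox was fitted in the same way in its own experiment. The count test, edgeR 4.0.16 quasi-likelihood on the recovered reads, called 5046 of 22286 genes at 0 h.

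The members, the rule for named genes and the lists were chosen with earlier results of these data known. The rule named the identifiers noted for SGT1 and SGT2 and the 2 highest and 2 lowest called genes whose groups do not overlap, for abundant genes at 0 h (mean of at least 1000), for the difference of effects between 3 h and 0 h (not overlapping at 0 h or at 3 h) and for genes shared with SGT2ox (ranked by the smaller of both changes), all with a mean of at least 50 over the 6 libraries. Its set at 0 h without the level of 1000 is not printed as a set of its own. Of that set, Solyc02g021785.1, Solyc10g038185.1 and Solyc06g035940 are given under the other sets. The RefSeq gene table (41476 entries) matched 0 of the 29285 identifiers, so the 24 gene lists had no member.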

Additional observations from a re-analysis of the deposited data

Results flagged for a closer look

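The named genes below are those whose line effect at a later time differed from that at 0 h by the test of the difference itself (limma, adjusted p under 0.05). Values are differences of log2 fold changes, later time minus 0 h, so a positive value means a more positive effect later. At 3 h they were 0.36 for Solyc06g007980, 0.32 for Solyc09g061860, -1.25 for Solyc10g075150, -2.81 for Solyc03g120990, -2.29 for Solyc00g500063, 2.62 for Solyc07g016117.1 and 2.34 for Solyc11g012130. The value of Solyc07g016117.1 lay between 1.11 and 3.67 over the pseudocounts and tools tried.

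In the libraries labelled SGT1ami at 24 h, the difference was 1.57 for Solyc06g007980, 0.23 for Solyc09g061860, 2.02 for Solyc07g039330, -10.7 for Solyc06g035940 and -1.78 for Solyc10g075150. It was 0.54 for Solyc00g500063, -5.07 for Solyc07g016117.1 and 1.06 for Solyc11g012130. The genes shared with SGT2ox gave 8.56 for Solyc02g021785.1, 7.35 for Solyc10g038185.1, -6.77 for Solyc08g066400 and -7.27 for Solyc04g039670. For Solyc06g035940, Solyc07g016117.1 and the 4 shared genes, groups at or near 0 enter these differences, so their size depends on the pseudocount and is no bound on the fold. At 0 h, a pseudocount of 5 took the log2 fold change of Solyc04g039670 from 7.27 to 4.98.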

How the results depend on the processing

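The total counts of the 6 comparisons stayed within 1.5 times, and the log2 fold change of Solyc06g007980 kept its direction and its call, under every alternative run (scaling, pseudocount of 0.5 or 5, filter, libraries in the fit, edgeR, DESeq2 1.42.0, replicate block, leaving out a library). The split of calls by direction did not hold in every comparison. It turned with TMM at 0 h (2047 higher, 2095 lower) and with library totals for the changes of effect at 3 h (2324 and 2155) and 24 h (2977 and 2024) and for the genes shared with SGT2ox (511 and 730). At 0 h edgeR gave 2471 higher and 2481 lower. Among genes at least 2-fold apart at 0 h, and among those called in the same direction at 3 h, rises outnumbered falls under every alternative run. Both sets include genes whose direction at 0 h was fixed by the rule. The genes called at 0 h numbered 3860 when only the 6 libraries were fitted, 4344 without the 24 h libraries, 4952 with edgeR and 4913 with DESeq2. Leaving out 1 library gave 3398 to 3697 genes called at 0 h, 331 to 347 at least 2-fold apart, 1191 to 1279 called in the same direction at 3 h, 3885 to 4130 with a changed effect at 3 h and 4550 to 4956 at 24 h, 979 to 1077 shared with SGT2ox, and log2 fold changes of -1.70 to -1.66 for Solyc06g007980. Library totals moved the median log2 fold change of all genes by less than 0.1 in each comparison, from 0.0056 to 0.0051 at 0 h. Replicate numbers did not pair the libraries, with correlations of same-numbered deviations of -0.0028, -0.014 and 0.017, and SGT1ami replicate 1 lay closest to wild type replicate 2. With the replicate block 4079 genes were called at 0 h, 351 of them at least 2-fold apart, and the log2 fold changes of the named genes that were refitted, at 0 h or for the change at 3 h, kept their calls. The change of effect at 24 h cannot be given without the 24 h libraries. The limits of 0, 5 and 10 reads for genes near 0 were added after the data were seen, and gave 6, 15 and 41 genes present in the wild type alone and 21, 42 and 76 in SGT1ami alone.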
